A study of Zea mays with 6 samples.

Results

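Peaks of the maize transcription factor ZmNAC24 that lay close together along the genome are described here. The peaks of the single deposited list were sorted by position and joined where the gap between the end of a peak and the start of the next was at most 10 kb, and all joined runs of at least 3 peaks were kept. This gave 423 of 1132 peaks, in 62 clusters. The members were thus chosen by the measured positions of the peaks, and the number of peaks, the gaps and the spans given below are descriptions. The list came from DNA affinity purification sequencing (DAP-seq). A tagged protein made in vitro is mixed with a library of purified genomic DNA, unbound fragments are washed away, and the retained fragments are sequenced. The series holds 3 libraries with NAC24-HALO and 3 libraries with GFP-HALO, a mock control with the same tag, all on genomic DNA of B73, a maize inbred line, taken from untreated primary roots after 2 days of germination without light at 28 °C. DNA of 3 separate roots was offered to both proteins, per the design text. The peak list gives 1 value per peak and no value per library, so no value below has a replicate error, no difference was tested, and the peaks could not be compared with the GFP-HALO libraries.

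NAC proteins are a large plant-specific family named after the genes NAM, ATAF and CUC. They bind DNA as dimers through a conserved amino-terminal domain, and members are known for roles in organ boundaries, lateral roots, secondary wall formation, senescence and stress. DNA used in DAP-seq carries no nucleosomes or partner proteins, so binding reflects the sequence and methylation of the DNA offered. Each peak is described by the authors' peak shape score, which grows with the strength of the call, and by the unadjusted p-value that goes with it. All positions are on B73 RefGen v4. The base sequences of the peaks were not used here.

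Most clusters were small and a few were very large. The median cluster held 5 peaks (quartiles 3 and 8.75), 17 of the 62 had exactly 3 peaks, and 12 had at least 10. These 12 held 179 peaks, or 42.3% of all peaks in clusters. The span from the first to the last base of a cluster had a median of 7468 bp and ran from 883 bp to 27036 bp. Clusters held a median of 1.02 peaks per kb, and their peaks covered a median of 23.3% of the span.

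**Figure D1:**
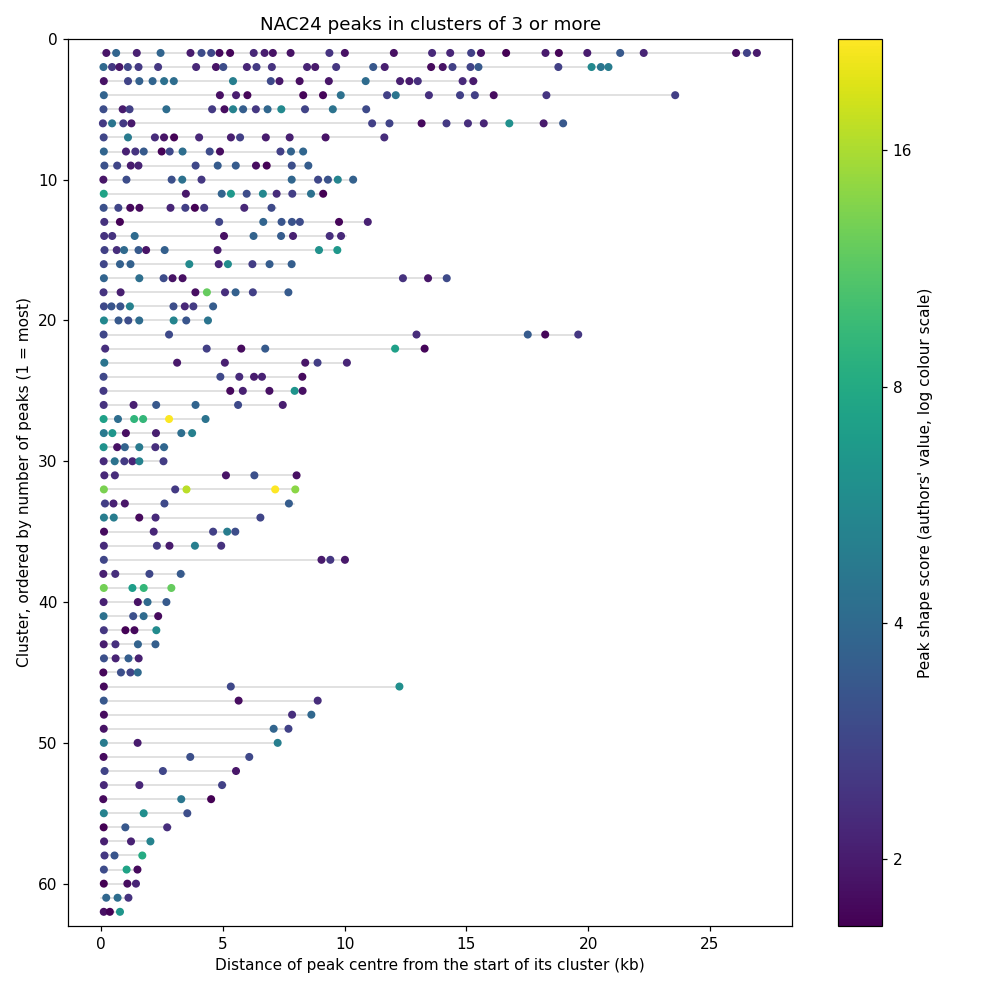
Position of every peak centre (x axis, kb from the start of the cluster) in each of the 62 clusters (y axis, ordered by number of peaks), coloured by the peak shape score on a log colour scale. The clusters with the most peaks, at the top, reach 27.0 kb in length and hold scores below 8, while the brightest points lie in clusters of 4 to 8 peaks.

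The cluster with the most peaks lay on chromosome 2 (79918069 to 79945104) with 29 peaks, and its scores stayed low, between 1.65 and 3.82 with a median of 2.01. The next was on chromosome 7 (179705006 to 179725933), where 26 peaks scored 1.76 to 5.60. Its 3 peaks nearest the high end, starting at 179724985, 179725433 and 179725739, had the 3 highest scores of that cluster, 5.60, 4.52 and 4.85. On chromosome 9 a cluster of 17 peaks spanned 77039738 to 77055163, with its top score of 4.97 in the peak that starts at 77045023. Another on that chromosome held 15 peaks over 23672 bp, with scores of 1.70 to 4.46. On chromosome 4, 14 peaks within 10994 bp (115198592 to 115209585) scored 1.82 to 5.62 all of them at least 19738 bp from a listed gene. Across the 12 clusters of at least 10 peaks, the highest score in a cluster ran from 3.14 to 7.41 and the cluster median from 2.01 to 3.37.

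Very high scores stood in smaller clusters. Of the 20 highest scores of the whole list, 11 were in clusters, which held 37.4% of all peaks. All 11 came from 4 clusters, so the count rests on few places. In the cluster on chromosome 2 from 157585024 to 157593105, the 5 peaks scored 13.1, 2.56, 16.9, 22.2 and 14.1 in order of position. The 22.2 is the maximum of the list (p = 3.09e-109 in the authors' deposited table), and the weak second peak ended 258 bp before the third, which scored 16.9. The 6 peaks on chromosome 1 from 197009231 to 197013627 scored 7.13, 4.13, 8.98, 9.19, 21.8 and 4.42. On the unplaced contig B73V4_ctg205, 4 peaks within 2995 bp scored 12.7, 6.89, 9.24 and 12.0. These last clusters, of 6 and of 4 peaks, were the only 2 among the 62 in which every score was at least 4. No other cluster had a p of at most 0.001 in the authors' deposited table for every peak. The p falls as the score rises, so the p adds nothing separate to the score here.

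The fourth of these clusters had a different profile. On chromosome 9 from 61983540 to 61991347, a single peak at 61987773 scored 12.0, while its 7 neighbours scored 1.80 to 3.62. The highest score was 3.33 times the second there. A larger ratio was found only in the shortest cluster, on chromosome 5 (145444312 to 145445194), where the 3 peaks scored 1.84, 1.66 and 6.40 and the ratio was 3.49. Such a lead was uncommon. The highest score was at least 2 times the second in 11 of 62 clusters and at most 1.2 times the second in 33, with a median ratio of 1.18.

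The 10 clusters with the highest single score held 60 peaks in all and had 3 to 10 peaks each. Their top scores ran from 6.42 to 22.2. Besides the 4 clusters above, they included a cluster of 3 peaks on chromosome 7 (38725318 to 38727117) with a top score of 8.05, which at 180657 to 182231 bp lay farther from listed genes than any other cluster. They also included 3 peaks on chromosome 8 (119940744 to 119942347), of which the middle one scored 7.46. None of these 10 clusters overlapped a gene, and in 8 of them all peaks were over 5 kb away from any listed gene. Among all 62 clusters, these 10 included, 13 overlapped a gene and 40 had every peak over 5 kb away. Whether the 10 clusters differ from the others in this was not tested.

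**Figure D2:**
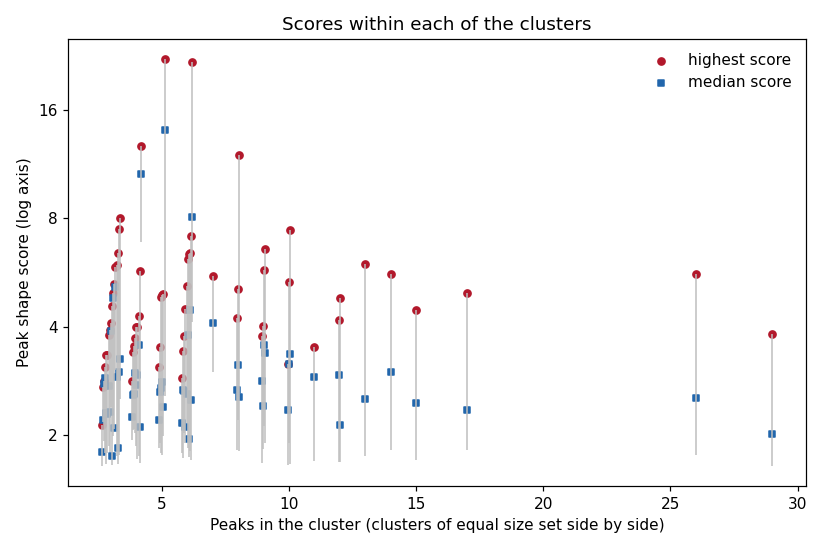
Highest score (red circles), median score (blue squares) and full range (grey lines) of each of the 62 clusters against its number of peaks, on a log score axis, with clusters of equal size set side by side. Clusters of 11 to 29 peaks do not exceed 5.99, whereas clusters of 5 and 6 peaks reach 22.2 and 21.8.

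Median scores did not climb with the number of peaks in a cluster. The median was 2.71 for 51 peaks in clusters of 3, 2.74 for 66 peaks in clusters of 4 to 5, 2.89 for 157 peaks in clusters of 6 to 10, and 2.50 for 149 peaks in clusters of 11 to 29. The order-statistic intervals of these medians, which take peaks as independent, overlapped: 2.18 to 3.03, 2.30 to 3.09, 2.60 to 3.14 and 2.23 to 2.69. The maximum in each size class was 8.05, 22.2, 21.8 and 5.99. Over the 62 clusters, Spearman's rho of the number of peaks was 0.031 with the cluster median and 0.195 with the highest score.

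Most clusters mixed strong and weak peaks. Of the 423 peaks in clusters, 146 (34.5%) had a p of at most 0.001 in the authors' deposited table, where the share over the whole list was 31.8%, and these were spread over 56 of the 62 clusters. At a p of at most 0.005 the counts were 223 peaks (52.7%, whole list 47.3%) and 61 clusters. At a p of at most 1e-10 they were 21 peaks (4.96%, whole list 4.06%) and 11 clusters. The share at 0.001 was thus near that of the whole list, which includes the clusters. Isolated peaks had lower shares, 30.0% at 0.001, 43.5% at 0.005 and 3.71% at 1e-10. At 0.005 the exact interval was 39.5 to 47.6 for isolated peaks and 47.8 to 57.6 in clusters. Peaks in pairs had 31.0%, 46.6% and 2.59% at these limits. The median score was 2.68 in clusters, 2.49 in pairs and 2.41 for isolated peaks. These differences were not tested. The counts of clusters rise with the number of peaks per cluster, and they were not set against an expected number. The median over clusters was 4.68 for the highest score of a cluster and 1.82 for the lowest score of a cluster. The weakest single score in the clusters was 1.64, with a p of 0.04999 in the authors' deposited table. No listed peak scored lower, and isolated peaks and pairs began at 1.65 and 1.66. The lowest scores of clusters thus lay near the floor of the whole list.

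Neighbouring peaks often differed in score. The higher of a pair of neighbours was a median of 1.37 times the lower (quartiles 1.14 and 1.70, n = 361 pairs of neighbours), and at most 6.67 times. Differences between clusters made up 40.1% of the variance of log10 score, where the number of clusters and peaks alone would give an average of 14.5% for scores in no order. On chromosomes only, without the clusters on contigs, the share was 35.5%. Across the 361 neighbour pairs, which share clusters and peaks, Pearson's r was 0.44, but 0.037 without the 3 clusters of highest score, and Spearman's rho was 0.17. The likeness of neighbours by Pearson's r thus rested on those 3 clusters. The share of variance was not worked out without them. The strongest peak was the first or last of its cluster in 25 of 62 clusters. A position drawn evenly among the peaks of each cluster would give 25.3.

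Peaks within clusters were usually separated by less than 1 kb. The gap between neighbours had a median of 551 bp (quartiles 233 and 1183) and a minimum of 67 bp, and 255 of 361 gaps (70.6%) were at most 1000 bp. Centres were never closer than 251 bp. Spacing was mostly irregular: over the 45 clusters of at least 4 peaks the coefficient of variation of the centre spacing had a median of 75.7% and a range of 11.5% to 168%. The lowest value belonged to 4 peaks on chromosome 8 (162231297 to 162232939), whose centres were 419 to 528 bp apart and all lay inside a single gene. The 5 clusters with the most peaks per kb, at 2.25 to 3.40, were this one, the shortest cluster named above, 3 peaks on chromosome 8 (144343220 to 144344411), 4 on chromosome 9 (61921559 to 61923165) and 6 on chromosome 3 (81479471 to 81482138).

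At the edge of the joining distance, the widest gaps kept inside a cluster were 9931 bp on chromosome 4 and 9603 bp on chromosome 9. The narrowest gaps that kept clusters apart were 10448 bp on chromosome 4 and 10756 and 10818 bp on chromosome 9. The same neighbourhoods on these chromosomes thus held the gaps on either side of the limit.

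Clusters themselves came in groups. With 100 kb as the limit between clusters, a distance chosen after the positions were seen, 19 of the 62 clusters fell into 6 stretches of 2 to 4 clusters, with 147 peaks (34.8% of the peaks in clusters). The longest stretch, on chromosome 2 from 79843456 to 79975625, held 42 clustered peaks in 3 clusters, among them the cluster of 29. On chromosome 5, 28 peaks in 4 clusters lay between 145351493 and 145475925. On chromosome 9, 4 clusters with 35 peaks lay between 61921559 and 61991347, with gaps of 10756 to 12548 bp between them. The other stretches were on chromosome 1 (343002 to 464421, 18 peaks), on chromosome 4 (160248106 to 160314124, 18 peaks) and on chromosome 9 (57392038 to 57438551, 6 peaks). Counted in this way, the clusters stood for 49 separate places.

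Chromosomes differed widely in the share of their peaks that stood in clusters. On chromosome 9, 88 of 144 peaks (61.1%) were in 10 clusters, and on chromosome 2, 69 of 130 (53.1%) in 7 clusters. Chromosomes 1 and 3 to 8 had 24.2% to 38.8% of their peaks in clusters. Chromosome 10 had 45 peaks, and 0 of them were in a cluster. These shares count each peak, so the cluster of 29 weighs heavily on chromosome 2. On chromosome 9 the stretch from 61921559 to 61991347, with 35 peaks, does so in the same way. No test was made. On unplaced contigs there were 3 clusters, with 13 peaks. A pair of clusters lay near the low end of a chromosome, with no gene listed on their lower side: 10 peaks on chromosome 1 from 17057 to 26301, with a top score of 7.41, and 6 peaks on chromosome 9 from 2150 to 9720, with a top score of 3.76.

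The width of peaks varied more in clusters than among isolated peaks. Widths in clusters had a median of 222 bp with an SD over peaks of 34.8 bp (n = 423, range 132 to 330). Peaks in pairs had a median of 222 bp and an SD of 26.5 bp (n = 116), and isolated peaks a median of 216 bp and an SD of 19.1 bp (n = 593, range 192 to 327). In clusters 60 peaks (14.2%, exact 95% interval 11.0 to 17.9) were narrower than the narrowest isolated peak, 192 bp, as were 6 peaks in pairs (5.17%). Isolated peaks have 0 below this width by construction, and it was chosen after the widths were seen. Wider than 250 bp were 73 peaks in clusters (17.3%), 17 in pairs (14.7%) and 38 isolated peaks (6.41%), so wide peaks were about as frequent in pairs as in clusters.

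**Figure D3:**
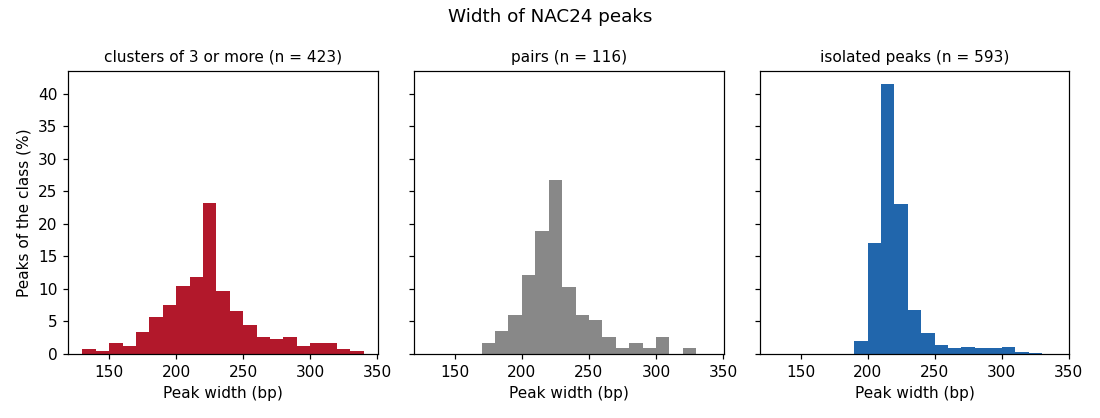
Distribution of peak width (x axis, bp, in steps of 10) as a percentage of the peaks in clusters (red, n = 423), in pairs (grey, n = 116) and isolated (blue, n = 593). The distribution for clusters spreads to both sides, down to 132 bp and up to 330 bp, while isolated peaks begin at 192 bp.

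Narrow peaks had a close neighbour more often than other peaks in clusters, but many did not. Of the 60 narrow peaks, 35 had another peak within 200 bp, edge to edge, and 25 did not, while 108 of all 423 peaks in clusters (25.5%) had such a neighbour. Within 1000 bp the counts were 56 of 60 and 348 of 423 (82.3%). Among the 108 peaks in clusters with a neighbour within 200 bp, the median width was 205.5 bp 35 (32.4%) were narrower than 192 bp and 73 were not. Beyond 1000 bp from their nearest neighbour, 75 peaks in clusters had a median width of 223 bp and 5.33% were that narrow. Over the 423 peaks Spearman's rho between width and gap to the nearest peak was 0.30, and between score and that gap it was 0.015. These peaks share clusters, and both measures come from the same peak edges. Scores of the narrow peaks had a median of 2.17 and reached 8.98.

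**Figure D4:**
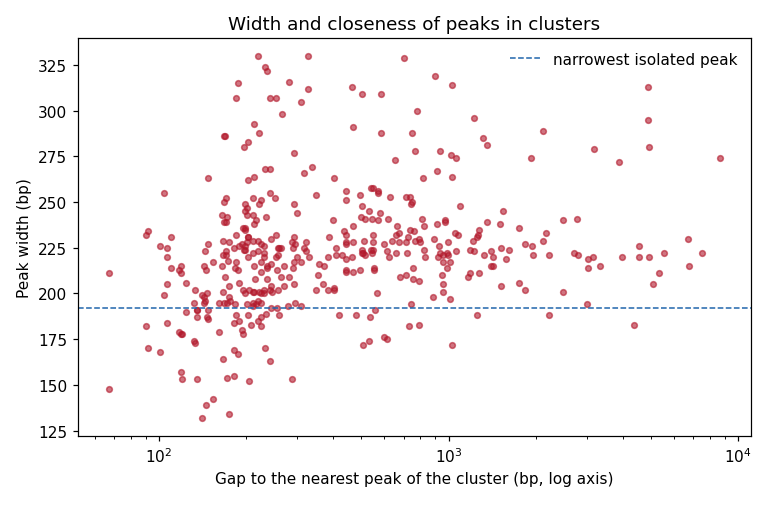
Width of each of the 423 peaks in clusters (y axis, bp) against the gap to its nearest peak (x axis, bp, log axis), with the narrowest isolated peak, 192 bp, as a dashed line. Of the 60 points below the line, 46 have a neighbour within 400 bp, as have 229 of all 423 points.

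Peaks in clusters were also less symmetric. The centre that the authors gave lay a median of 7.5 bp from the middle of the peak in clusters, 4.5 bp in pairs and 2.0 bp in isolated peaks. It was off by more than 10% of the width in 78 peaks in clusters (18.4%, exact 95% interval 14.9 to 22.5), 13 in pairs (11.2%) and 27 isolated peaks (4.55%). The part that the calling of closely spaced peaks has in width and symmetry was not tested.

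Most clusters stood away from genes. In 40 of the 62 the nearest listed gene was over 5 kb away from every peak, and in 8 it was over 50 kb away. Of the rest, 13 clusters overlapped a gene with at least 1 peak, 3 came within 1 kb of a gene edge without overlap and 6 within 1 to 5 kb. By peaks, 43 (10.2%) in clusters overlapped a gene, against 9.48% in pairs and 23.8% of isolated peaks. A further 22 (5.20%) in clusters lay within 1 kb of a gene edge, against 2.59% in pairs and 15.3% of isolated peaks. Between 1 and 5 kb away lay 71 (16.8%) in clusters, against 18.1% in pairs and 21.6% of isolated peaks. Over 5 kb away were 287 (67.8%, exact 95% interval 63.2 to 72.3) in clusters, against 69.8% in pairs and 39.3% of isolated peaks. Over 20 kb away were 37.8% in clusters, 49.1% in pairs and 26.3% of isolated peaks, and over 50 kb away were 10.2% in clusters, 27.6% in pairs and 14.2% of isolated peaks. Peaks in clusters and in pairs thus had similar shares over 5 kb from a gene, both above that of isolated peaks, but beyond 50 kb the share in clusters was the lowest of the 3.

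**Figure D5:**
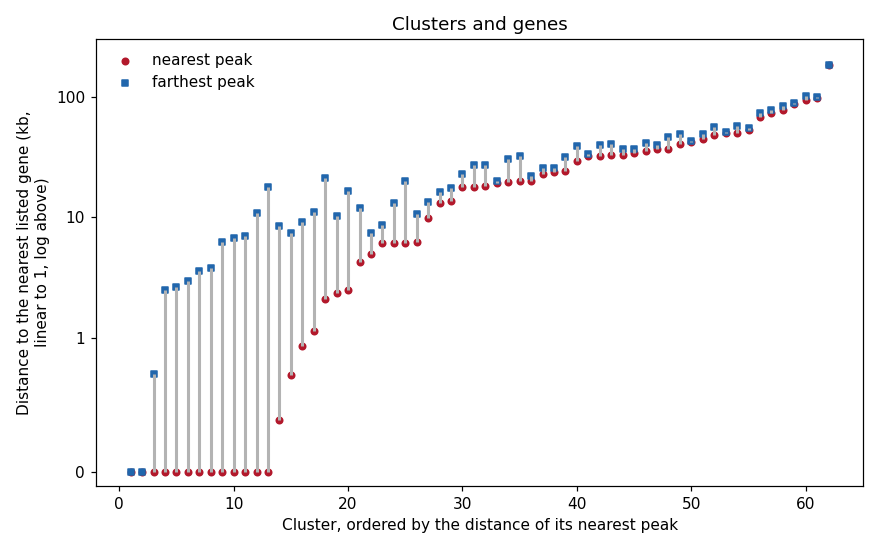
Distance from the nearest (red circles) and the farthest (blue squares) peak of each of the 62 clusters to the nearest listed gene (y axis, kb, linear up to 1 and log above), with clusters ordered by the nearest distance. The 13 clusters at 0 overlap a gene, and 2 of them lie wholly inside one.

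The 13 clusters that touched genes overlapped 17 genes with 43 of their 147 peaks. Inside these genes the median score was 2.92 (n = 43, 1.74 to 5.32), and outside them, in the same 13 clusters, it was 2.38 (n = 104, 1.65 to 5.75). In the 11 of these clusters with peaks on both sides of a gene edge, the median was higher inside in 9. In several of the 11, among them the cluster of 26 peaks, only 1 peak lay inside a gene. The median inside was then the score of that peak. In the same 11 clusters the strongest peak lay inside a gene in 6, where an even draw among the peaks of each would give 3.41. The comparison of peaks inside and outside genes was chosen after the data were seen and has no test.

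Several genes were covered by runs of peaks. On chromosome 9, 6 peaks of the cluster of 17 lay in Zm00001d046260, with scores of 1.81 to 4.09. In Zm00001d004057, on chromosome 2, 5 peaks of the cluster of 29 scored 3.82, 2.01, 2.99, 2.86 and 1.74 in order of position, and 2 more of that cluster lay in the next listed gene. The 5 peaks on contig B73V4_ctg208 (185 to 5785) all lay in Zm00001d000389, with scores of 1.78 to 4.83. The 4 evenly spaced peaks on chromosome 8 named above scored 3.09, 2.10, 3.54 and 2.08, all in a single gene. On chromosome 5, 4 of 8 peaks between 145423666 and 145428373 lay in a gene and scored 2.92, 3.28, 3.24 and 5.09. On chromosome 1, 4 of 5 peaks from 25984333 to 25990981 did so, with scores of 4.91, 4.85, 1.76 and 2.23. The functions of these genes are not given in the sources used here.

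Of the 113 genes listed beside clusters, 1 carried a symbol, ATPA, and that symbol was found in RefSeq, where it is listed for a gene on chromosome 3 and, written atpA, for a gene of the plastid genome. The ATPA protein is the alpha subunit of ATP synthase, which makes ATP from a proton gradient. Its cluster held 10 peaks over 10458 bp on chromosome 3. The 4 peaks for which ATPA was listed, starting at 74906767, 74907174, 74907619 and 74908240, scored 2.87, 3.20, 5.32 and 3.66, and the first 3 of them overlapped the gene. The peak before them, at 74905717, lay in another gene and scored 3.85. The remaining 5 peaks, 2192 to 6247 bp from the nearest gene, scored 1.91, 3.00, 3.11, 4.36 and 2.51. Among the 113 genes 0 were named as aquaporins, the water and solute channels named in the title of the series, 0 as NAC factors, and 1, ATPA, began like a gene of an organelle genome. Because 112 genes were identifiers without a name, these counts set no limit on such genes near clusters.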

How the data were processed

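ZmNAC24-HALO and GFP-HALO were each used in 3 DAP-seq libraries. The deposited peak table gives the authors' peak shape score and p-value per peak, with no adjustment named per the file headers. Positions are on B73 RefGen v4, per the submitters' processing notes. The aligner, the peak caller, the use made of GFP-HALO and any pooling are not given in the sources used here. A 2 follows NAC24 in the name of the table, which may stand for library 2, but this is not stated, so a peak may rest on 1 library or on several. With 0 columns of values per library, depth is unknown.

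Peaks were joined with pandas 2.3.3 in Python 3.11.15, and the joining was tested on simulated positions. The distance to a gene is the smaller of the authors' distances on either side, and 0 means overlap. Shares carry exact (Clopper-Pearson) and medians order-statistic 95% intervals (scipy 1.17.1), which count neighbouring peaks as independent and cover counting error only. The members and lists were chosen with earlier results of these data known. Clusters described singly were taken from those with a named gene, the most peaks (12, with ties), the highest scores or the most peaks per kb. Not all of these were described. Identifiers were printed for 4 genes at most. Other clusters singled out were chosen after their values were seen. Alternatives varied the joining distance, the smallest cluster, the p limit, contigs, the largest cluster, the file and the weight per cluster. RefSeq genes of Zm-B73-REFERENCE-NAM-5.0 served for names only. Motifs and sequences were not used here.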

Additional observations from a re-analysis of the deposited data

How the results depend on the processing

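Medians and shares were held to their 95% intervals, and counts and the variance share to 1.5 times the value. By these limits 64 of 85 alternatives stayed and 21 moved, 11 of them by more than 1.5 times. The values set against were 62 clusters, 423 peaks, a median gap of 551 bp, a median span of 7468 bp, a median score of 2.68, 10.2% of peaks overlapping a gene, 67.8% over 5 kb from one and 40.1% of the variance between clusters. Joined within 2 kb, clusters had a median gap of 442.5 bp and a median span of 2852 bp, as the shorter limit brings. With at least 5 peaks there were 36 clusters, with a median span of 8390 bp and 63.1% of peaks more than 5 kb from a gene. Keeping peaks with a p of at most 0.005 left 178 peaks in 35 clusters, with a median gap of 757 bp, a median score of 3.58, 13.5% of peaks overlapping a gene and 60.5% of the score variance between clusters. At a p of at most 0.001, 95 peaks in 21 clusters were left, with a median gap of 820 bp, a median score of 4.13, 72.6% more than 5 kb from a gene and 68.4% of the variance between clusters. Scores in no order would give 19.2% and 21.3% of the variance at these limits, against 14.5% for all peaks. Fewer peaks and a higher lowest score follow from these limits, and the cause of the other changes was not tested. Counting each cluster a single time gave a mean of cluster medians of 3.17 for the score. This set a mean against a median: the median of the cluster medians was 2.67, and the largest of them was 14.1. The share of peaks more than 5 kb from a gene, taken per cluster and averaged over clusters, was 77.2%. Of 8 alternatives added after the data were seen, 2 moved: the narrow peaks came to 35 when joined within 2 kb and 27 at a p of at most 0.005. The narrowest isolated peak was taken anew in each of these settings. The width limit may thus differ from 192 bp, and the counts need not refer to the same peaks. At 50 kb there were still 6 stretches, but with 16 clusters and 126 peaks in place of 19 and 147. At 200 kb there were 6, with 19 clusters. The interval file gave 62 clusters and 424 peaks.

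No paired analysis was possible because each peak has a single value in the list. Replicates could not be left out, and what depth limits could not be measured, for the same reason.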

Other observations

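The interval file holds 1 interval without a row in the table, and it lay inside a cluster, on chromosome 9 at 57398571 to 57398742. It was 172 bp wide and 438 bp from the nearest peak of a cluster of 3, so that cluster would hold 4 peaks with it. Of 24 intervals whose edges differ from the table, 10 were peaks in clusters. Outside the clusters but within 50 kb of one stood 19 peaks, beside 15 clusters.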
